A study of Mus musculus with 23 samples.

Results

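Loss of Dicer1 was examined in mouse retina that already lacked Rb and p107. Of the 23 retina samples of the series, 7 belong to this comparison, which was defined by their labels alone. The 3 DKO samples (double knockout) are titled Chx10Cre with Rb lox/lox and p107 -/-. The 4 DKO_DicKO samples carry the same alleles and Dicer1 lox/lox in addition. Both groups are labelled retina, mixed background strain and untreated, and both belong to the first of 2 profiling sets. In that set 3 wild-type samples (WT) and 3 samples titled Dicer1 lox/lox (DicKO, with no Cre named in the title) served as a second Dicer1 comparison. Chx10Cre acts in the progenitors of the neural retina, so vessels, blood cells and other cells outside that lineage keep their floxed alleles, whereas p107 is given as absent throughout. Ages are not stated. Nor is it stated whether each sample came from a separate animal, so p-values measure only the spread between these samples, which may be technical.

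Dicer1 is the enzyme that cuts hairpin precursors into mature microRNAs (miRNAs) of about the length of the sequences printed below, which then guide Argonaute proteins to partly complementary sites in mRNAs. The seed near the 5′ end of a miRNA largely decides which sites it pairs with, so miRNAs with the same seed form a family. Most miRNAs pass through Drosha first and Dicer1 second, and a small class needs Dicer1 but skips Drosha. In the retina, miR-9 and the miR-17~92 cluster are known from progenitors, miR-124 from neurons and the miR-183 cluster from photoreceptors. Rb and p107 restrain E2F transcription factors, and the miR-17~92 cluster is among the known E2F targets.

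Levels were measured with 522 stem-loop RT-qPCR assays and are given as Cq, the cycle at which the signal crosses a threshold. The earlier the cycle, the more template was present, with close to a doubling per cycle. The table has no assay for a protein-coding transcript, so the loss of Dicer1, Rb or p107 could not be checked. In bulk retina, fewer cells of a type and less miRNA per cell cannot be told apart.

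The following mature sequences belong to the miRNAs that the comparison turns on, with the seed (bases 2 to 8) in capitals. They come from RefSeq (build GRCm38.p6), which held 30 of the 31 assays looked up. The first set shares 1 seed and is encoded in the 3 related clusters of chromosome 14 (miR-17 and miR-20a), chromosome X (miR-106a and miR-20b) and chromosome 5 within the span of Mcm7, a gene for a replication helicase subunit (miR-93 and miR-106b).
miR-17: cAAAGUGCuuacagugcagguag
miR-106a: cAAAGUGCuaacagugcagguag
miR-20a: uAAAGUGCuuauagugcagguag
miR-20b: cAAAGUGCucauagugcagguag
miR-93: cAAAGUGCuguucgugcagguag
miR-106b: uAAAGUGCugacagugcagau
miR-17 lies at chr14:115043684-115043706 on the plus strand and miR-106a at chrX:52742541-52742563 on the minus strand. Their sequences differ at 1 position, and those of miR-17 and miR-93 at 4. How far an assay also reads such a close relative was not tested here. The same 3 clusters hold miRNAs with other seeds, which are shown for comparison because fewer of them were called.
miR-19a: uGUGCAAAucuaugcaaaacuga
miR-19b: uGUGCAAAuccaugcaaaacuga
miR-92: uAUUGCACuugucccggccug
miR-25: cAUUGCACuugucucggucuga

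Other families with several assays called lower are the miR-15/16 family and the pair of miR-99a and miR-100, which differ from each other at 1 position.
miR-15b: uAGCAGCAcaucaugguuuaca
miR-16: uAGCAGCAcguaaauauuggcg
miR-195: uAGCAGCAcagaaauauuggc
miR-497: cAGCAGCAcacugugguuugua
miR-99a: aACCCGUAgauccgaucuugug
miR-100: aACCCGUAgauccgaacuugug
Among the most abundant retinal assays, miR-9 and miR-204 were called lower, while miR-211, which shares its seed with miR-204 and differs from it at 1 position, was not called.
miR-9: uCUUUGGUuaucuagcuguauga
miR-204: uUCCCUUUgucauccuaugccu
miR-211: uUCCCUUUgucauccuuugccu
miR-204 lies at chr19:22750610-22750631 within the span of Trpm3 and miR-211 at chr7:64205831-64205852 within that of Trpm1, both genes for cation channels.

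The last set comprises miRNAs called higher without Dicer1 on the scaled level described below. miR-182 and miR-183, of the cluster on chromosome 6 that also encodes miR-96, are shown with them.
miR-218: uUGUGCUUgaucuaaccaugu
miR-138: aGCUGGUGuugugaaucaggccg
miR-296: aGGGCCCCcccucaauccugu
miR-96: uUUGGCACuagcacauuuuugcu
miR-183: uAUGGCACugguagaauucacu
miR-182: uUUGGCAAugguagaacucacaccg
The 2 copies of miR-218 lie within the spans of Slit2 on chromosome 5 and Slit3 on chromosome 11, genes for axon guidance ligands.

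Fewer miRNAs were detected, and those detected amplified later, in the samples without Dicer1. Detection means a Cq of at most 32, above which no value occurs in the first set. Of the 522 assays, 163, 226 and 193 were detected in the 3 DKO samples and 157, 123, 109 and 92 in the 4 DKO_DicKO samples. Every DKO_DicKO sample lay below every DKO sample, with means of 194 ± 31.5 (SD, n = 3) and 120 ± 27.6 (SD, n = 4). The difference of -73.8 assays had an exact two-sided permutation p of 0.0571 (adjusted 0.1 over 4 tests), where 35 arrangements allow no p below 0.0286.

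The 73 assays detected in all 7 samples had a mean Cq of 25.7, 23.7 and 25.4 in DKO and of 26.4, 27.8, 28.0 and 28.5 in DKO_DicKO. Again the groups did not overlap, with means of 24.9 ± 1.04 and 27.7 ± 0.878 cycles (SD, n = 3 and 4). The delay of 2.72 cycles had an exact two-sided permutation p of 0.0571 (adjusted 0.1). In otherwise wild-type retina the same 2 measures moved in the same direction without Dicer1, from 192 ± 31.4 to 124 ± 40.4 detected assays and by 2.58 cycles over 85 shared assays (SD, n = 3 and 3; exact permutation p = 0.1 each, with 0.05 the smallest p possible). Input RNA per reaction is not stated and the table has no control RNA, so a lower total of miRNA and a lower input cannot be told apart.

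**Figure D1:**
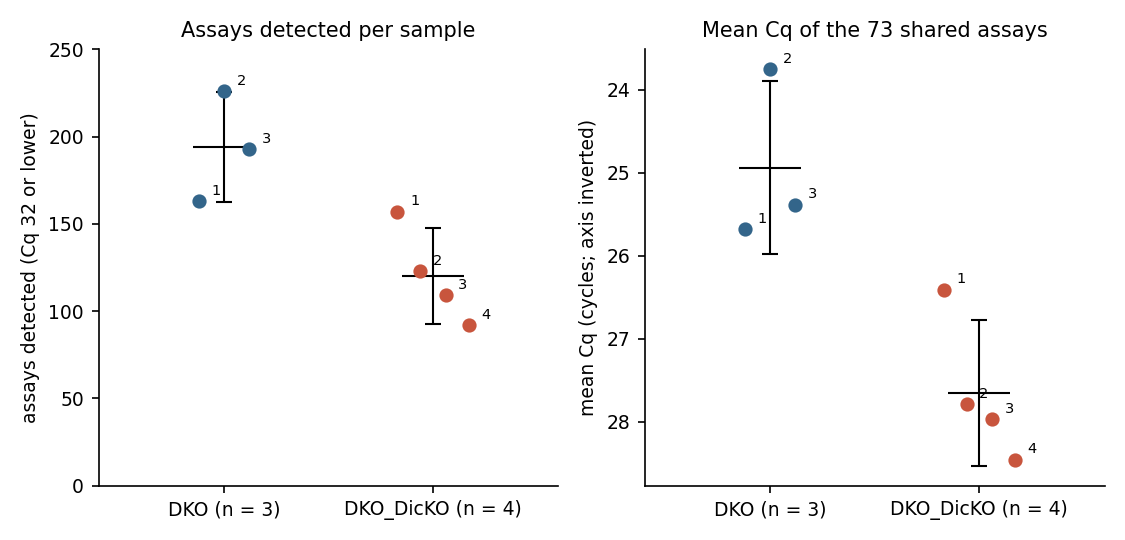
Left, number of assays detected per sample (Cq 32 or lower, of 522); right, mean Cq in cycles of the 73 assays detected in all 7 samples, with the axis inverted so that more template is higher. Points are samples with their replicate number, bars the mean ± SD of 3 DKO and 4 DKO_DicKO samples. All 4 DKO_DicKO samples, at 92 to 157 assays and 26.4 to 28.5 cycles, lie below all 3 DKO samples in both panels.

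The delay was broad but uneven across assays. Of the 73 shared assays, 71 had a later mean Cq in DKO_DicKO, and 50 were later in all 4 DKO_DicKO samples than in all 3 DKO samples (68.5%). The median delay was 2.88 cycles. At one end, miR-100 was delayed by 5.48 cycles, miR-497 by 5.28 and miR-9 by 4.72. At the other, miR-678 and 1 of the miR-378 assays had an earlier mean Cq in DKO_DicKO, by 0.20 and 0.67 cycles (differences of -0.20 and -0.67). The star strand miR-34c* was delayed by 0.18 cycles and miR-96 by 0.97.

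Loss of detection followed abundance for most assays. All 7 assays with a mean Cq under 22 in DKO were detected in all 4 DKO_DicKO samples, against 6 of the 52 assays at 28 and over. Of the 156 assays detected in all DKO samples, 16 were detected in no DKO_DicKO sample (10.3%), and none showed the reverse pattern. Of these 16, 9 had a mean Cq of 28 or over in DKO. The exceptions were 4 assays with a mean Cq under 26, namely miR-17, miR-106a, miR-93 and miR-532, the last of a cluster on the X chromosome outside the miR-17 relatives. The next in order of DKO Cq were miR-20b, miR-877*, miR-424, miR-449, miR-652 and miR-350, and the remaining 6 were miR-224, miR-667, miR-362-3p, miR-543, miR-467a and miR-99b*. An undetermined well is no proof of a low level, since 31 assays undetermined in all 13 first-set samples reached Cq 30 or earlier in each of the 10 second-set samples.

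On 8 assays DKO replicate 1 and DKO_DicKO replicate 4 stood apart together, being more than 1 cycle later, after scaling, than every other one of the 7 samples or undetermined. These were miR-690, miR-699, miR-9*, miR-190b, miR-30e-3p, miR-183*, miR-764-5p and miR-720. For miR-690 the Cq was 30.2 in DKO replicate 1 against 22.9 and 24.5 in the other DKO samples, and undetermined in DKO_DicKO replicate 4 against 24.2 to 26.8. None of the 8 was used for scaling, and of the 6 tested on the scaled level described next none was called. Without scaling, miR-9*, miR-30e-3p and miR-720 were called lower, at -3.83, -3.20 and -3.27.

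To compare miRNAs with each other, each level was set against the mean Cq of 61 assays, those found in all 13 first-set samples, giving a log2 relative quantity, with a common floor at -2.94. A change on this scale is a change relative to the mean of these 61 assays, all of which stayed detected without Dicer1. Relative to that mean, limma with Benjamini-Hochberg adjustment called 34 of 125 tested assays lower (27.2%) and 6 higher (4.80%) at an adjusted p under 0.05, 40 in all. The median change of all 125 was -0.11. Without scaling, 99 of 157 tested assays were called (63.1%), 98 of them lower (62.4%) and 1 higher, around a median of -2.76. All 34 assays called lower were also called without scaling. Of the 6 called higher, 5 had a negative change without scaling, none of them called. The split depends on which assays are tested and on how undetermined wells are treated. To be tested, an assay had to be detected in all DKO samples, as 156 were, or in all DKO_DicKO samples, as 74 were. Assays low in DKO_DicKO could thus enter through DKO alone. An assay also had to lie above the floor in at least 1 of the 13 first-set samples, which could be a WT or DicKO sample. The tested miR-31, miR-103, miR-136, miR-192, miR-331-5p, miR-376c, miR-409-3p and miR-872 lay at the floor in all 7 samples, so they could not be called. The shares of 27.2% and 4.80% count them as tested. Among the 61 assays detected in all 13 samples, 9 were called higher and 16 lower. With undetermined wells left missing, 21 of 49 called assays were higher and 28 lower, and with them at Cq 32 and no common floor, 12 of 40 were higher and 28 lower. In 45 of the 125 tested assays (36.0%) the groups did not overlap. For 10 of the 34 assays called lower, all DKO_DicKO samples lay at the floor, so that their fall is a lower bound with a standard error that is too small, if undetermined wells held little template rather than failing. With both libraries that stood apart left out, 37 assays were called, 36 lower and 1 higher, of which 30 were among the 40.

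**Figure D2:**
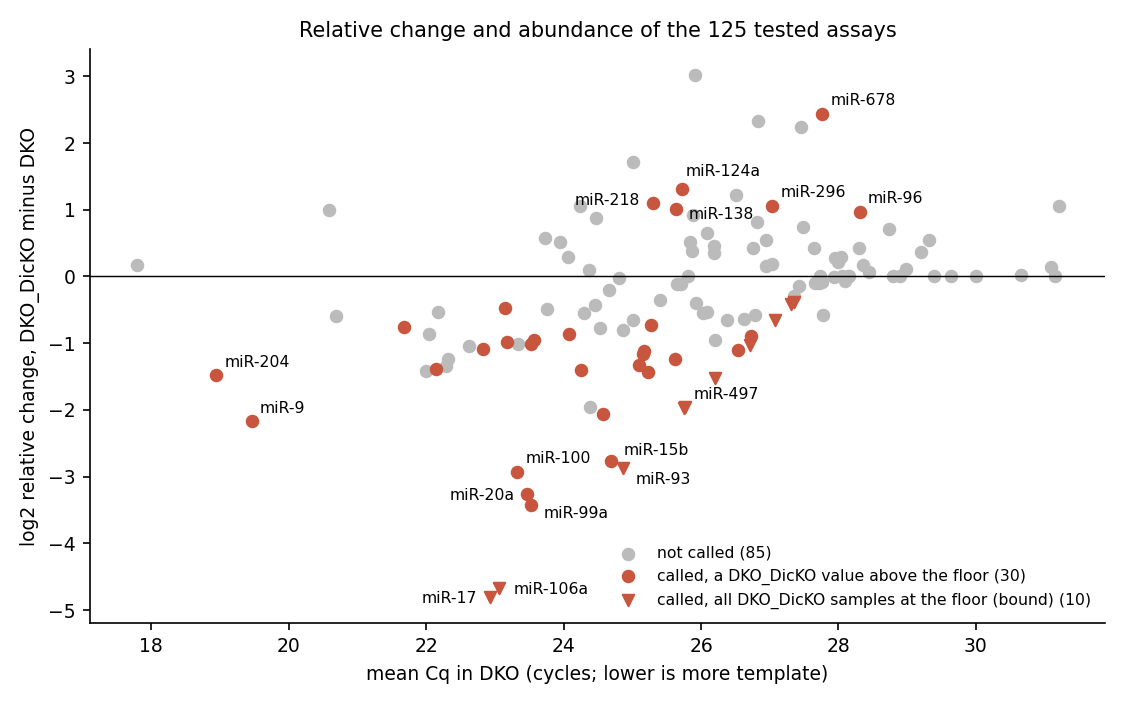
Log2 relative change (DKO_DicKO minus DKO, scaled) of the 125 tested assays against their mean Cq in DKO in cycles, where lower is more template. The 40 called assays are coloured, and triangles mark the 10 whose fall is a lower bound. miR-17 and miR-106a lie lowest, at -4.80 and -4.67; of the named assays above 0, miR-124a, miR-218, miR-138, miR-296 and miR-96 turn negative without scaling, and miR-678 does not.

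miR-17 and miR-106a fell furthest of the 125 assays tested. All 6 assays with the seed shown first were called lower, against 27.2% of all 125 tested. miR-17, which promotes proliferation as part of the cluster named after it, had a Cq of 23.1, 22.2 and 23.5 in DKO and was undetermined in all 4 DKO_DicKO samples. Its relative level fell by 4.80, a lower bound (SE 0.23; limma adjusted p = 3.30e-08). miR-106a, its relative on the X chromosome, had a Cq of 23.6, 22.2 and 23.5 in DKO and was likewise undetermined throughout DKO_DicKO. It fell by 4.67, again a lower bound (SE 0.15; limma adjusted p = 1.45e-09). Both were detected in all 3 WT samples and in no DicKO sample. All their DKO_DicKO and DicKO values were therefore set to the floor and had no spread. Both SE are thus too small, and the 2 adjusted p-values do not measure a spread in those groups.

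miR-93 had a Cq of 25.4, 23.8 and 25.4 in DKO and none in DKO_DicKO, where its relative level fell by 2.86, a lower bound. miR-20b had a Cq of 27.5, 25.6 and 27.1 in DKO and none in DKO_DicKO, where its relative level fell by 1.02, also a lower bound. These 4 assays thus separate the groups by detection alone.

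The other 2 assays with this seed kept a signal. miR-20a had a Cq of 24.1, 22.5 and 23.8 in DKO and of 29.0, 27.2 and 30.5 in DKO_DicKO replicates 1, 3 and 4, with replicate 2 undetermined. It fell by 3.26 (SE 0.69; limma adjusted p = 0.00387), and the 3 measured DKO_DicKO values spread over more than 3 cycles. miR-106b had a Cq of 24.8, 23.3 and 24.7 in DKO and of 27.2, 28.5, 28.2 and 28.9 in DKO_DicKO, with no overlap. It fell by 1.41 (limma adjusted p = 0.00151).

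The tested members of the same clusters with other seeds changed by -0.63 to -1.09. miR-20b, with the seed shown first, lay in that range too, though its fall of 1.02 is a lower bound. miR-19b, known for its part in the oncogenic activity of the cluster, had a Cq of 22.7, 21.1 and 22.4 in DKO and of 24.5, 26.2, 24.5 and 26.7 in DKO_DicKO. All 4 DKO_DicKO values were later than all DKO values, but the relative change of -0.87 ± 0.39 (SE) was not called (limma adjusted p = 0.114). miR-19a changed by -0.63 and was not called either. Without DKO_DicKO replicate 3, in which both had their highest relative level, both were called lower, at -1.32 and -1.13. miR-92 was called at -1.09 (limma adjusted p = 0.0473), a call lost when any 1 of the DKO replicates or DKO_DicKO replicate 1 or 2 was left out. miR-25 changed by -0.95 (limma adjusted p = 0.0598) and was called lower, at -1.52, without DKO_DicKO replicate 4.

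By cluster, 3 of 5 tested assays of miR-17~92 and 3 of 4 of the miR-106b cluster were called lower. So were both assays counted for the X-linked cluster of miR-106a, against 27.2% of all 125 tested assays. None was called higher. The medians were -1.09, -1.18 and -2.84, against -0.11 over all 125 tested assays. The median of -2.84 rests on 2 assays. miR-19b (-0.87, not called) and miR-92 (-1.09) are also encoded in the X-linked cluster but were counted only under miR-17~92. The star strand miR-93* was among those called, at -0.89.

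**Figure D3:**
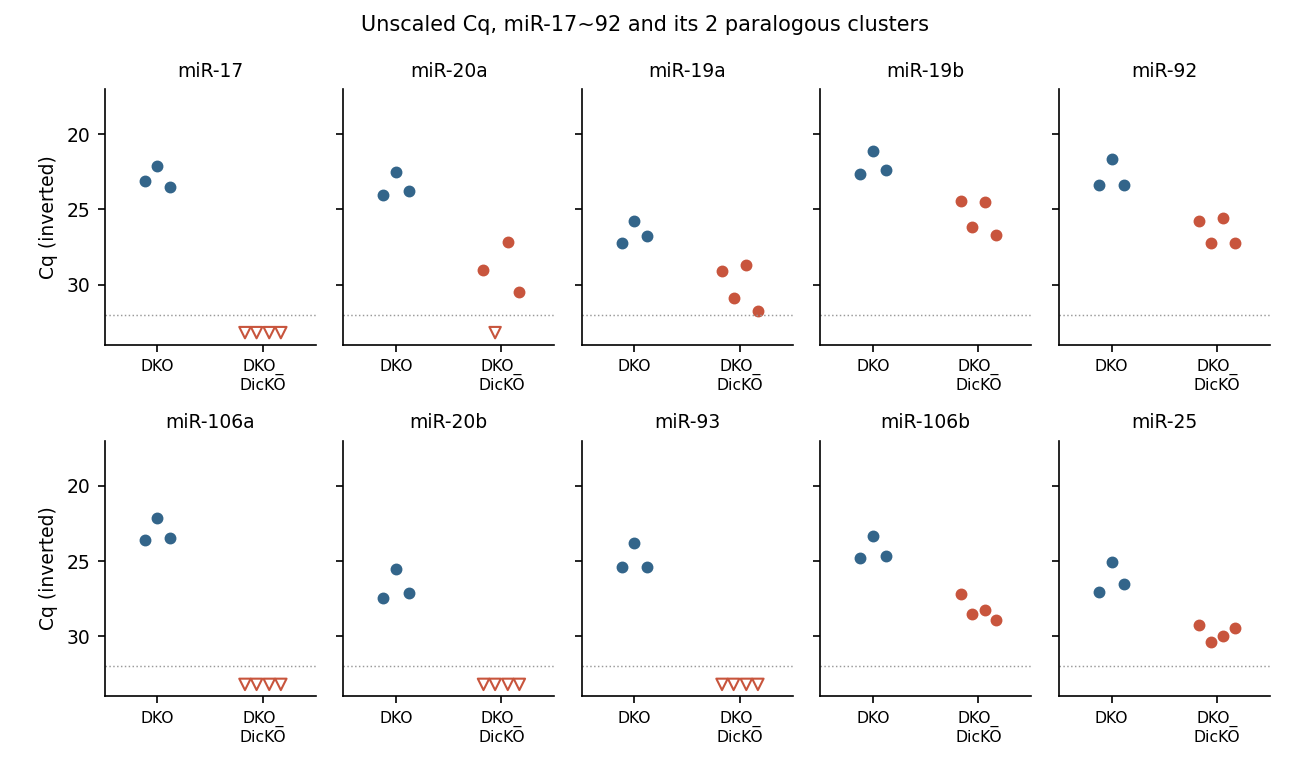
Unscaled Cq in cycles, axis inverted, of 10 assays of the miR-17~92 cluster and the clusters of miR-106a and miR-106b in 3 DKO (blue) and 4 DKO_DicKO (red) samples. Open triangles below the dotted line at Cq 32 are undetermined wells. miR-17, miR-106a, miR-20b and miR-93 are undetermined in all 4 DKO_DicKO samples, while miR-19b and miR-92 keep a Cq of 24.5 to 27.3.

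In other families the share of assays called lower varied, against 27.2% of all 125 tested. In the miR-15/16 family, which restrains the cell cycle, all 4 tested assays were called lower, with a median of -1.45. miR-15b had a Cq of 25.2, 23.7 and 25.2 in DKO and of 28.3, 31.4 and 30.8 in DKO_DicKO replicates 1, 2 and 4, with replicate 3 undetermined, and fell by 2.77 (SE 0.19; limma adjusted p = 8.62e-07). Replicates 2 and 3 lay at the floor, which limits the size and spread of this fall. With a limit of Cq 35 the miR-15b change was -3.76 (limma adjusted p = 0.00353). miR-497 had a Cq of 26.8, 24.7 and 25.8 in DKO and of 30.9, 31.2, 30.6 and 31.4 in DKO_DicKO. All 4 values lay at the floor after scaling, so its fall of 1.96 is a lower bound. With a limit of Cq 35, which lowers the floor to -5.94, the miR-497 change was -2.72 (limma adjusted p = 0.00447). miR-195, encoded beside miR-497 on chromosome 11, fell by 0.95, a call lost with only the 7 samples fitted (limma adjusted p = 0.0866). The abundant miR-16 fell by 0.76 (limma adjusted p = 0.0337), a call lost without DKO replicate 1 or 3 or DKO_DicKO replicate 2.

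Of the 5 tested assays of the miR-99, miR-100 and miR-125 families, which are encoded together with let-7 genes, 3 were called lower and none higher (median -1.38). miR-99a had a Cq of 24.2, 22.5 and 23.9 in DKO and of 28.2, 28.9 and 30.3 in DKO_DicKO replicates 1, 2 and 4, with replicate 3 undetermined. It fell by 3.43 (SE 0.35; limma adjusted p = 1.73e-05). miR-100 had a Cq of 24.1, 22.1 and 23.7 in DKO and of 27.4, 28.5, 29.5 and 29.9 in DKO_DicKO, and fell by 2.92 (limma adjusted p = 6.21e-06). This was the longest unscaled delay of the 73 shared assays. miR-125b fell by 1.38, while miR-99b and miR-125a-5p, at -0.12 and -0.65, were not called. miR-125a-5p was called lower, at -0.97, without DKO_DicKO replicate 3.

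Of 6 tested let-7 assays, a family that rises as cells differentiate, 1 was called lower, against 27.2% of all tested assays. let-7i had a Cq of 25.6, 23.1 and 25.1 in DKO and was undetermined in DKO_DicKO replicates 2 and 3, against 27.1 and 28.7 in replicates 1 and 4. Its fall of 2.06 (limma adjusted p = 0.0139) was not called without DKO replicate 2. Nor was it called with only the 7 samples fitted (limma adjusted p = 0.125) or with undetermined wells at Cq 32 and no common floor (0.0623). let-7c changed by -1.41 ± 0.56 (SE), and its Cq in DKO_DicKO, at 26.4, 25.9, 26.0 and 25.5, was later than the 23.3, 20.2 and 22.5 of DKO. It was called lower, at -2.03, without DKO_DicKO replicate 4. The median over the 6 was -1.29, and let-7g lay at -0.03.

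In the miR-30 family 2 of 4 tested assays were called lower, miR-30d at -1.24 and miR-30a-5p at -1.01. The call of miR-30a-5p was lost with only the 7 samples fitted (limma adjusted p = 0.0551). The abundant miR-30c changed by -0.59 and was called lower, at -0.98, without DKO_DicKO replicate 4. miR-29a changed by -1.01 (limma adjusted p = 0.159), and miR-181a by 0.30 with scaling and by -2.26 without it. miR-365, which is encoded on chromosomes 11 and 16, fell by 1.53, a lower bound.

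Of the miRNAs that skip Drosha but need Dicer1, 3 were tested and 2 called lower (27.2% of all tested assays were). miR-320 had a Cq of 25.8, 24.0 and 25.7 in DKO and of 27.2, 29.2, 29.4 and 29.5 in DKO_DicKO, and fell by 1.12 (limma adjusted p = 0.00126). miR-484 fell by 0.86. The mirtron-derived miR-877* was undetermined in all DKO_DicKO samples, and its change of -0.58 was not called.

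Among the assays with the lowest Cq in DKO, responses were unequal. The lowest, miR-709, had a Cq of 18.8, 16.6 and 18.0 in DKO and of 17.9, 19.7, 20.9 and 22.2 in DKO_DicKO, so that the groups overlapped. Its relative change of 0.18 was not called, and it was negative without scaling (-2.38) and without DKO_DicKO replicate 1 (-0.15). Its annotation as a miRNA is disputed.

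miR-9, a regulator of neural progenitor proliferation and differentiation, had a Cq of 20.2, 18.3 and 19.8 in DKO and of 23.2, 24.6, 24.1 and 24.9 in DKO_DicKO. The groups stood 3 cycles or more apart, and miR-9 fell by 2.16 (SE 0.19; limma adjusted p = 5.43e-06).

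miR-204, a miRNA of pigment epithelium, ciliary body, lens and neural retina, had a Cq of 19.6, 18.0 and 19.3 in DKO and of 21.5, 22.7, 24.0 and 23.6 in DKO_DicKO. It fell by 1.48 (SE 0.23; limma adjusted p = 6.77e-04) with no overlap. miR-211 had a Cq of 21.1, 19.1 and 21.6 in DKO and of 20.0, 21.9, 23.8 and 22.8 in DKO_DicKO, where the groups overlapped. Its relative change of 0.99 ± 0.49 (SE) was not called (limma adjusted p = 0.143), was negative without scaling (-1.57), and was called higher, at 1.42, without DKO_DicKO replicate 3. That library also had the lowest relative level of both miR-204 and miR-211 in its group. Of the others with a low Cq, miR-125b and miR-16 are given above, and miR-26a changed by -0.54 and was called lower, at -0.87, without DKO replicate 3.

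Of the 6 assays called higher, 4 are on the lists of neural miRNAs or of the sensory cluster, miR-124a, miR-218, miR-138 and miR-96. These lists hold 9 and 4 tested assays, and 4.80% of all tested assays were called higher. The mean Cq of these 4 assays was later in DKO_DicKO, by 0.97 to 1.54 cycles against the median delay of 2.88. Their rise is thus only one relative to the assays used for scaling. For these 4 and miR-296 the change was negative without scaling. miR-218, a miRNA of motor neurons and other neurons, had a Cq of 26.2, 23.9 and 25.9 in DKO and of 25.7, 26.9, 27.6 and 26.9 in DKO_DicKO. Its relative level rose by 1.10 (SE 0.25; limma adjusted p = 0.00603), against -1.45 without scaling. miR-138, abundant in brain, had a Cq of 26.7, 24.3 and 25.9 in DKO and of 25.8, 27.3, 27.7 and 28.0 in DKO_DicKO, and rose by 1.02 (limma adjusted p = 0.00789), against -1.54 without scaling. For both, the relative levels of the groups did not overlap although the unscaled Cq values did.

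miR-124a, the leading neuronal miRNA, had a Cq of 26.4, 24.4 and 26.3 in DKO and of 24.9, 26.7, 28.5 and 27.7 in DKO_DicKO. Its rise of 1.32 (SE 0.43; limma adjusted p = 0.0382), against -1.24 without scaling, was called in 7 of 18 alternatives. It was not called without any 1 of the DKO replicates or without DKO_DicKO replicate 1, 2 or 4, and the relative levels overlapped in replicate 3. miR-296 rose by 1.06 (limma adjusted p = 0.00246), against -1.50 without scaling, from a Cq of 27.7, 25.9 and 27.4 in DKO to 27.2, 28.5, 29.4 and 29.0 in DKO_DicKO. With a limit of Cq 30 its change was 0.08 and not called (limma adjusted p = 0.514).

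miR-678 was the only 1 of the 6 whose unscaled change was positive, at 0.20 ± 0.86 (SE), but that change was not called (limma adjusted p = 0.821). Its Cq was 28.7, 27.3 and 27.3 in DKO and 27.0, 27.0, 27.0 and 29.3 in DKO_DicKO, with replicate 4 later than every DKO sample. The relative rise of 2.44 (SE 0.75, limma adjusted p = 0.0323) was not called without DKO replicate 1 or 2 or DKO_DicKO replicate 2 or 3. Nor was it called with a limit of Cq 30, at 0.88 (limma adjusted p = 0.345). The mean relative level of miR-678 in DKO, -2.65, lay close to the floor of -2.94. Without both libraries that stood apart, none of these 5 nor miR-96 was called, with changes of 2.59 for miR-678, 1.16 for miR-124a, 0.65 for miR-218, 0.79 for miR-296, 0.67 for miR-138 and 0.86 for miR-96.

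The sensory cluster on chromosome 6, expressed in photoreceptors and other sensory cells, had 4 tested assays, of which miR-96 was called higher and none lower. The cluster's median was 0.77 with scaling and -1.66 without it. miR-96 had a Cq of 29.8, 26.4 and 28.6 in DKO and of 27.5, 29.5, 30.2 and 29.9 in DKO_DicKO. Its DKO values lay at or close to the floor, and its rise of 0.97 (SE 0.27; limma adjusted p = 0.0195), against -0.97 without scaling, was not called without DKO replicate 1 or 3. miR-183 had a Cq of 26.9, 25.0 and 27.6 in DKO and of 25.6, 27.7, 29.3 and 28.8 in DKO_DicKO. Its change of 1.23 (limma adjusted p = 0.0651; -1.33 without scaling) was called higher, at 1.58, without DKO_DicKO replicate 3. miR-182 changed by 0.58 (-1.98 without scaling) and was called, at 0.95, without DKO_DicKO replicate 2. miR-183* is among the assays on which 2 libraries stood apart.

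Of 18 neural assays 9 were tested, with 3 called higher (miR-124a, miR-218 and miR-138, all 3 negative without scaling), 2 lower (miR-9 and miR-135a) and a median of -0.11, the same as over all 125. Of all tested assays, 4.80% were called higher and 27.2% lower. miR-135a had a Cq of 26.0, 24.0 and 25.7 in DKO and of 28.5, 29.0, 29.0 and 30.4 in DKO_DicKO, and fell by 1.44 (limma adjusted p = 0.00132). Its relative miR-135b changed by -0.11 and was not called.

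**Figure D4:**
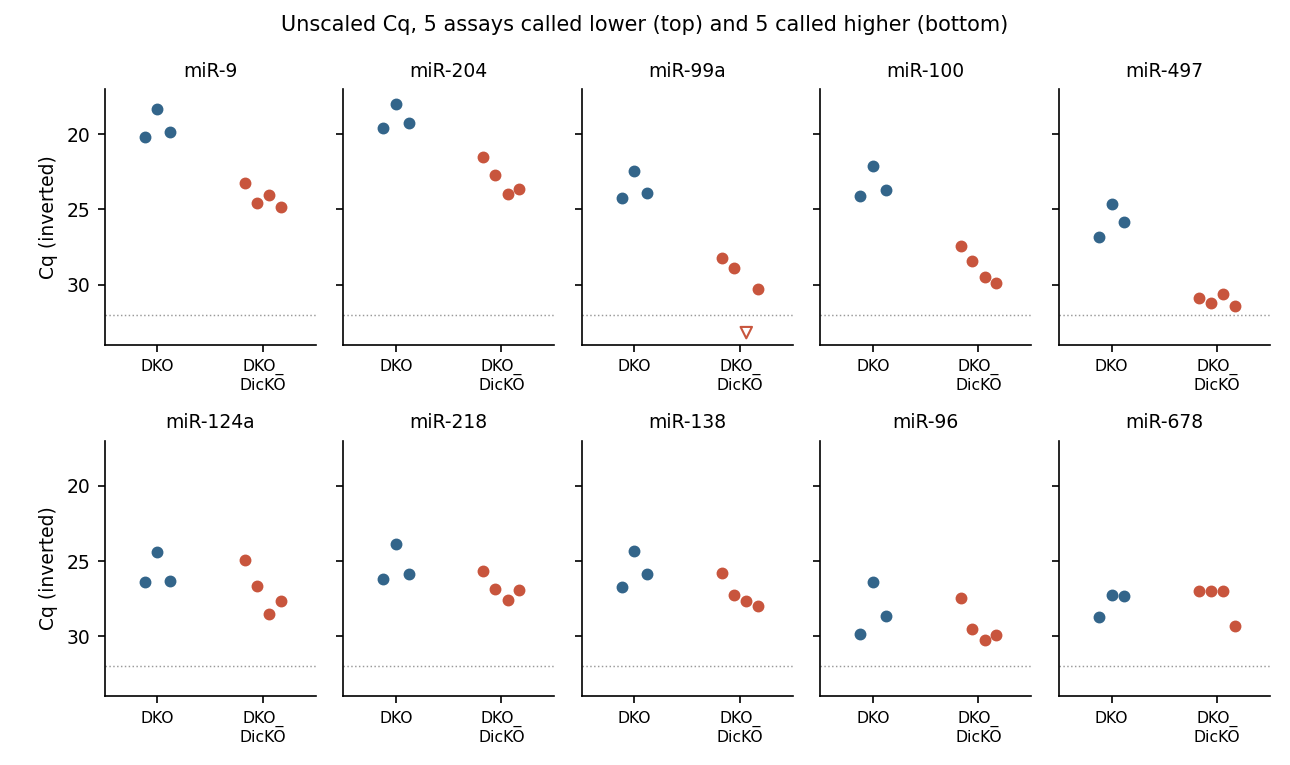
Unscaled Cq in cycles, axis inverted, of 5 assays called lower (top row) and 5 called higher in relative level (bottom row) in 3 DKO (blue) and 4 DKO_DicKO (red) samples; the open triangle is an undetermined well and the dotted line Cq 32. In the top row all DKO_DicKO values lie below all DKO values. In the bottom row the groups overlap, and the change without scaling is negative for miR-124a, miR-218, miR-138 and miR-96 and 0.20 for miR-678.

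The imprinted Dlk1-Dio3 cluster, a large neuronal group, had 66 assays and 10 tested, of which limma called none and 1, miR-127, had an unadjusted p under 0.05. Of the 10, miR-376c, miR-409-3p and miR-136 lay at the floor in all 7 samples and could not be called. The cluster's median was 0.15, and -1.68 without scaling. Its member miR-673 was the 1 assay called higher without scaling, by 2.13 (limma adjusted p = 0.0325). Its Cq was at the limit of 32 in DKO replicate 1, 30.4 in replicate 2, undetermined in replicate 3 and 29.4, 29.1, 29.0 and 29.8 in DKO_DicKO. With scaling its change of 1.05 was not called (limma adjusted p = 0.182), but it was called higher with a limit of Cq 35 (3.95), with undetermined wells left missing (4.65), with no common floor (4.69) and with only the 7 samples fitted (1.86). miR-376b* changed by 0.54 (-0.65 without scaling). It was called higher with undetermined wells left missing (2.31), with no common floor (1.91) and without DKO_DicKO replicate 4 (0.81). miR-434-3p changed by 0.82 (-1.74 without scaling) and was called higher, at 1.14, without DKO_DicKO replicate 3. Of 8 detected p53-responsive assays 3 were tested and none called by limma, with 1 at an unadjusted p under 0.05. Of these 3, miR-192 lay at the floor in all 7 samples and could not be called. miR-34c*, a star strand of a p53 target, changed by 2.25 ± 0.83 (SE; limma adjusted p = 0.0616) and by -0.18 without scaling, and was called without DKO_DicKO replicate 1, at 2.74.

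On the scaled level with the common floor, miR-204 was the 1 marker of other cell types that was called. It is on the list for pigment epithelium, ciliary body and lens and is also expressed in neural retina. Of 7 white blood cell and microglia assays 5 were tested and none called by limma (0 at an unadjusted p under 0.05), with a median of 0.03 and a summed relative level (log2, undetected members at the floor) between 0.52 and 0.89 in DKO and between 0.64 and 0.90 in DKO_DicKO. The defining miR-142-3p was detected in DKO replicates 2 and 3 alone, at Cq 30.2 and 31.8, and miR-142-5p in none of the 7. The vessel miRNA miR-126 changed by 0.30 with scaling and by -1.95 without it, neither called. It was called higher, at 0.77, with only the 7 samples fitted. In DKO all members of the vessel and muscle lists lay at the floor, so their summed levels, -0.62 and 0.23, show only the floor there, against -0.60 to -0.47 and 0.23 to 0.31 in DKO_DicKO. Other treatments of low values called some markers higher. The muscle miRNA miR-133a changed by 0.15 and was called at 2.02 with a limit of Cq 35, at 3.14 with undetermined wells left missing and at 2.85 with no common floor. The blood cell miRNA miR-150 changed by 0.03 and was called at 2.22 and 1.95 under the last 2 of these settings. The red blood cell marker miR-486 was undetermined in all 7 samples, and no assay passed to the test from the E2F-linked list (6 assays), the epithelial miR-200 family (9) or the rodent Sfmbt2 cluster (16). The sum of miR-204, miR-211 and the lens and pigment epithelium miRNA miR-184 ran from 6.17 to 6.40 in DKO and from 4.78 to 6.52 in DKO_DicKO. Their part in the other results was not tested.

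The last comparison asked whether Dicer1 loss acted differently with and without Rb and p107, by testing the difference between the effect in DKO and the effect in WT. Of 135 tested assays, 8 differed (limma interaction term, adjusted p under 0.05; 5.93%). The strongest falls were not among them. The difference for miR-17 was 0.04 ± 0.34 (SE; limma adjusted p = 0.942), between effects of -4.80 and -4.84 that are both lower bounds. Both groups without Dicer1 lay at the floor for miR-17, so this value compares only its levels in DKO and WT. It cannot show whether the 2 falls were equal. For miR-9 the difference was -0.18 ± 0.28 and for miR-124a -0.08 ± 0.63 (both SE and not called), intervals that leave room for differences of more than 1 for miR-124a.

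miR-29a differed most, by -4.51 ± 0.77 (SE; limma adjusted p = 0.00628). Its Cq was 24.0, 22.3 and 23.6 in DKO, 25.1, 26.5, 29.1 and 27.0 in DKO_DicKO, 27.2, 25.3 and 27.5 in WT and 26.2, 24.2 and 27.8 in DicKO. Its mean relative level was -2.21 in WT, 1.29 in DicKO, 1.46 in DKO and 0.45 in DKO_DicKO, so that WT was the group that stood apart. Without DKO_DicKO replicate 3, its latest value, the difference was -3.87 and was called.

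miR-218 and miR-296, which rose in relative level in DKO_DicKO (with negative changes without scaling), changed by -0.40 and -0.60 in the WT comparison. For miR-218 the relative means were 0.56 in WT and 0.16 in DicKO against -0.51 in DKO and 0.59 in DKO_DicKO, a difference of 1.51 (limma adjusted p = 0.0350). It was not called without WT replicate 2 or 3, DKO replicate 1 or 3, DicKO replicate 1 or 3 or DKO_DicKO replicate 2. For miR-296 the means were -1.49 and -2.09 against -2.25 and -1.18, a difference of 1.66 (limma adjusted p = 0.00668) that was called without each of the 13 libraries in turn. Its means in DicKO and DKO lay near the floor of -2.94. miR-181a differed by 1.39, with a change of -1.10 in the WT comparison and of 0.30 in the DKO comparison.

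miR-195 differed by -1.39, with an effect of -0.95 in DKO and 0.44 in WT (limma adjusted p = 0.0265). Its call was lost without WT replicate 1 or 3, DKO replicate 1 or 3, DicKO replicate 1 or 2 or DKO_DicKO replicate 4. For miR-365 and miR-497 both groups without Dicer1 lay at the floor, so their differences of -1.31 and -1.47 come from the groups with Dicer1, whose means were -1.41 in DKO and -2.73 in WT for miR-365 and -0.98 and -2.45 for miR-497. With a limit of Cq 35 neither was called, at -1.17 and -0.70 (limma adjusted p = 0.689 and 0.741), and 7 assays were, 4 of them among the 8. The difference of miR-497 was not called without DicKO replicate 3. miR-744 differed by 1.48, with the DicKO samples at the floor, and was not called without DKO replicate 3. Without scaling no difference was called in 170 tested assays by limma, and 2 had an unadjusted p under 0.05.

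**Figure D5:**
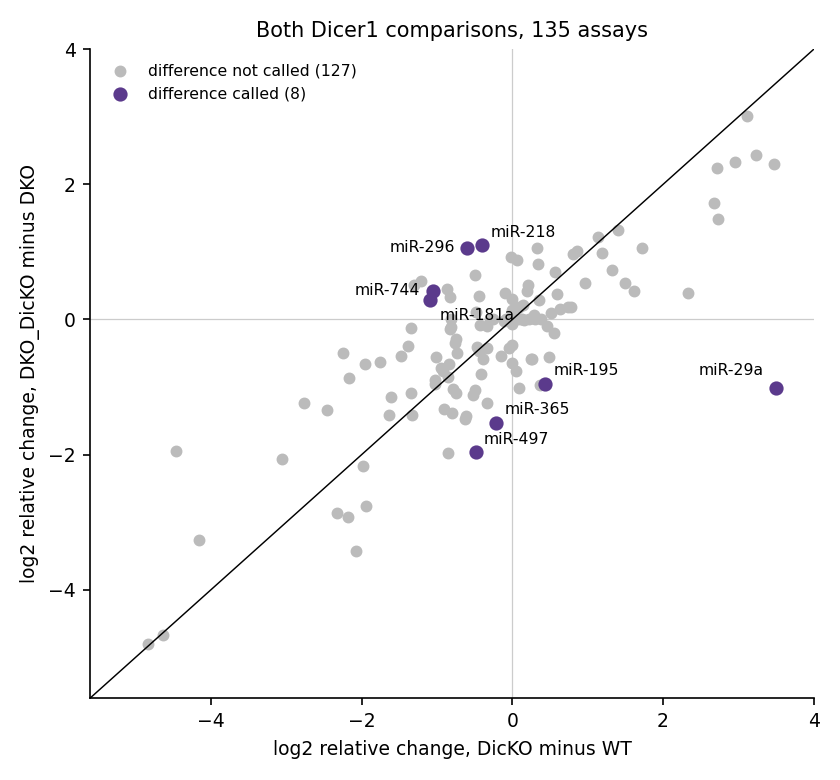
Log2 relative change without Dicer1 in DKO retina (vertical) against that in WT retina (horizontal) for 135 assays, both scaled. The diagonal marks equal effects, and dark points the 8 assays whose 2 effects differed in the interaction test, which called none without scaling. miR-29a lies furthest from the diagonal, at 3.50 and -1.01. miR-17 and miR-106a lie on it at the lower left, but both groups without Dicer1 are at the floor for them, so equal effects are not shown.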

How the data were processed

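Per the labels, total RNA of the 23 retina samples (microRNeasy) went through reverse transcription with 522 stem-loop primers and 14 cycles of pre-amplification. The authors deposited Cq values, with empty wells entered as undetermined; the table's name says they were not normalized, and the software and threshold are not given in the sources used here. The 10 columns without a name were not used. Log2 relative quantities were computed here from the deposited Cq values: the mean Cq of 61 assays detected (Cq 32 or lower) in all 13 first-set samples, minus the assay's Cq. Missing and lower values were set to a floor of -2.94, which raised 413 of 1063 detected values in the 7 samples. Assays detected in all samples of DKO or of DKO_DicKO were tested, unless they lay at the floor in all 13 first-set samples. limma 3.58.1 (R 4.3.3) was fitted to all 13 samples in 4 groups, two-sided, with Benjamini-Hochberg adjustment, and tested on simulated data. Values per sample were compared by exact permutation tests. Alternatives were no scaling, a median for scaling, detection limits of Cq 30 and 35, other treatments of undetected values, fewer assays or samples, a replicate block and leaving out libraries. Named by rule were the largest changes, the lowest Cq in DKO, assays lost and leading list members; the other assays named were chosen after their values were seen. The comparison and all lists were chosen with earlier results of these data known. The number of samples limits the precision.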

Additional observations from a re-analysis of the deposited data

Results flagged for a closer look

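Among the 4 DKO_DicKO samples, 5 of 44 named assays detected in all 4 had a sample further from the others than Dixon's test allows, where chance flags about 1 in 20. On the scaled log2 level before the floor, DKO_DicKO replicate 3 was lowest for miR-204, at 3.66 with the nearest sample at 4.55, and for miR-29a, at -1.41 with the nearest at 1.00, and highest for miR-484, at 0.25 with the nearest at -0.26. Replicate 1 was lowest for miR-673, at -3.36 with the nearest at -1.64, and for miR-34b-3p, at -4.07 with the nearest at -2.96. The change without Dicer1 differed between DKO and WT retina (limma interaction term) for 8 assays: by -1.31 for miR-365, -1.47 for miR-497, -4.51 for miR-29a, 1.39 for miR-181a, 1.66 for miR-296, 1.48 for miR-744, -1.39 for miR-195 and 1.51 for miR-218.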

How the results depend on the processing

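Of the 40 calls, 28 were made in every fit that left out 1 library and 18 under every alternative that tested them. The count was 99 without scaling and ran from 31 to 53 with 1 library left out. It was 25 (9 higher and 16 lower) over the 61 assays detected in all 13 samples, where fewer assays were tested. With only the 7 samples fitted it was 34, of which 29 were among the 40. For the 8 differences between the Dicer1 effects it was 0 without scaling (2 at an unadjusted p under 0.05), 5 over those 61 assays and 5 to 10 with 1 library left out. Both libraries that stood apart were left out after the data were seen. With a replicate block 43 assays were called, 11 higher and 32 lower, and 10 differences; same-numbered samples correlated at -0.03, 0.25 and 0.13, so the numbers were not taken to pair them. Without scaling, these named assays were negative that otherwise were not: miR-124a -1.24, miR-218 -1.45, miR-296 -1.50, miR-138 -1.54, miR-96 -0.97, miR-709 -2.38, miR-211 -1.57, miR-181a -2.26, miR-183 -1.33, miR-182 -1.98, miR-183* -2.39, miR-127 -1.90, miR-376b* -0.65, miR-434-3p -1.74, miR-34c* -0.18, miR-34b-3p -2.07, miR-342-3p -2.04, miR-155 -1.91, miR-126 -1.95, miR-150 -0.60 and miR-184 -2.56. With a limit of Cq 35, miR-365 and miR-497 no longer differed between the Dicer1 effects at the threshold, miR-183* was -0.36 and miR-155 -0.23. With 1 library left out, miR-183* ran from -0.27 (without DKO replicate 1) to 0.95 and miR-709 from -0.15 (without DKO_DicKO replicate 1) to 0.39. The floor, and undetermined wells, limit what low assays can show.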
